A study of Mus musculus with 39 samples.

Results

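The sites described here are those at which the glucocorticoid receptor (GR) was called in parental 7438 mouse mammary cells treated with estradiol (E2) alone, set against those called in cells without hormone. They come from 2 lists of sites of 150 bp: the GR list of E2-treated cells, with 326 sites, and the GR list whose file name says untreated, with 143 sites. Counting the sites found in both lists once, there were 438 sites among the 110608 called sites of the 24 lists of the series. The treatment of the second list was read from its file name. Its sample label says dexamethasone plus E2, and the list whose file name says both hormones carries the label untreated. File names were followed throughout, for the ER lists of the same cells too. Overlap with the lists of 7438 Afos did not by itself settle the treatment. Of the 143 sites, 84 (58.7%, exact binomial 95% interval 50.2 to 66.9%) were also in a GR list of untreated cells of the derived line 7438 Afos, as were 217 of the 9503 sites of the list labelled untreated (2.28%). Those 2 untreated lists of 7438 Afos hold 95 and 315 sites, so a list of 9503 sites could reach only a low share. In the GR lists of 7438 Afos with both hormones, which hold 14160 and 10309 sites, were 77.6% of the 143 and 78.3% of the 9503 sites. The lengths of the lists went with the file names. The 143 sites were near the untreated GR lists of 7438 Afos in number, and the 9503 near the parental GR list with Dexamethasone (12084). For ER, the lists named untreated and for both hormones hold 373 and 11982 sites, and the untreated ER lists of 7438 Afos 35 and 49. The parental ER list with dexamethasone holds 10149 sites, more than the parental ER list with E2 (7136). The ER lists of 7438 Afos with dexamethasone hold 61 and 41, so length by itself does not give the treatment either.

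GR and the estrogen receptor (ER) are nuclear receptors that bind DNA and regulate transcription once a steroid has bound to them. GR without ligand is held largely in the cytoplasm by chaperones, and glucocorticoids such as dexamethasone (Dex) move it into the nucleus and onto chromatin. E2 is the ligand of ER and is not a ligand that GR is known for. In mammary cells both receptors are known to use many of the same accessible enhancers. A GR list made with E2 alone therefore shows where GR was recovered when the other receptor was the one with its ligand.

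7438 cells carry genes for GR fused to GFP and for ER fused to Cherry, both under a tetracycline-regulated promoter, and all groups were grown for 24 h without tetracycline so that both fusion proteins were made. Cells received 100 nM E2 for 30 min (GR and ER lists), 100 nM Dex for 30 min (GR and ER lists), both hormones, or none. 7438 Afos cells also carry Afos under a regulated promoter; in the literature, A-Fos names a protein that blocks DNA binding by AP-1, and the labels do not spell the name out. GR was immunoprecipitated with a cocktail of 3 antibody preparations, and ER with a separate cocktail. Each treatment had 1 list in the parental cells and 2 replicate lists in 7438 Afos. Whether the replicates came from separate cultures is not stated. With 1 list a treatment, no test between parental treatments was possible. Intervals below are exact binomial 95% intervals, which cover counting error only. No read totals came with the lists, and the sequencing depth behind each is therefore unknown. Parental sites are all 150 bp wide, while sites of 7438 Afos are 251 bp or wider, which makes an overlap with them easier.

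GR sites with E2 and without hormone were mostly different sites. Of the 326 GR sites with E2, 31 (9.51%, interval 6.55 to 13.2%) overlapped a site of the untreated list by at least 1 bp, and 295 did not. Of the 143 untreated sites, 31 (21.7%, 15.2 to 29.3%) overlapped a site with E2, and 112 did not. The 295 sites are called E2-only, the 31 shared and the 112 untreated-only. Among the 32000 separate regions covered by the 8 parental lists, 1.01% held a GR site with E2 and 0.447% a GR site without hormone. Absence from a list means that no site was called there. The parental lists stop at a peak tag density of 10, and weaker signal is not in them. When the sample label was followed instead of the file name, 71.8% of the E2 sites overlapped the list of 9503 sites labelled untreated.

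The E2 list was longer than the untreated one, and its sites reached higher densities. The number of sites was 326 (Poisson 95% interval 292 to 363) with E2 and 143 (121 to 169) without hormone. The highest tag density, the authors' signal value for a site, had a median of 14.2 and a maximum of 98.4 with E2, and a median of 12.1 and a maximum of 43.0 without hormone. How densities were scaled between lists is not given in the sources used here, so strength is given mainly as a percentile rank within a site's own list. For comparison, the parental GR list with Dex held 12084 sites with a maximum of 759, and the ER list with E2 held 7136 sites with a maximum of 374.

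The strongest GR sites with E2 lay on the strongest ER sites. The highest GR site with E2 was on chromosome 11 (mm9, 50486288 to 50486438), with a GR density of 98.4 with E2, and the ER site there had a density of 256 with E2. No site was called there in the GR list with Dex, whose nearest site centre was 1725 bp away. The next was on chromosome 4 (135977837 to 135977987), with a GR density of 90.1 and an ER density of 145, the ER centre lying 2 bp away. After it came a site on chromosome 14 (26292634 to 26292784), with 78.0 for GR and 180 for ER, again without a GR site with Dex. On chromosome 1 (121746669 to 121746819) GR reached 66.2 and ER 162, and on chromosome 2 (25328233 to 25328383) GR reached 54.6 and ER 112. All of these sites were called for GR with both hormones too.

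Most other sites at the top of the E2 list were also bound by GR with Dex. On chromosome 17 (75510268 to 75510418) GR had a density of 75.6 with E2 and 23.3 with Dex, and ER had 189 with E2. On chromosome 12 (16797341 to 16797491) GR had 75.5 with E2 and 30.2 with Dex, at the ER site with the density 329. On chromosome 4 (134658636 to 134658786) GR had 72.2 with E2, 102 with Dex and 193 with both hormones, and ER had 165 with E2. A pair of neighbouring sites on chromosome 8 (123450070 to 123450220, and 123450346 to 123450496) completed the 10 highest, with GR densities of 58.0 and 49.98. The first of the pair overlapped GR sites with Dex (density 160) and with both hormones (131). The second overlapped neither, and its nearest Dex centre was 181 bp away. All 10 overlapped an ER site with E2 and 4 overlapped a GR site with Dex. None was in the untreated list, and the chromosome 8 pair was the part of the 10 found in untreated GR lists of 7438 Afos.

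The lists do not say whether their coordinates count from 0 or 1, and they are printed unaltered. Genes at these sites were not assigned and no sequence is shown, because the gene positions and sequences at hand were of another build.

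Over the whole ER list, the classes had similar shares of sites with ER. An ER site with E2 was present at 179 of 295 E2-only sites (60.7%, 54.9 to 66.3%), at 20 of 31 shared sites (64.5%, 45.4 to 80.8%) and at 60 of 112 untreated-only sites (53.6%, 43.9 to 63.1%). The intervals of these shares overlapped. With ER sites weaker than the median of their list left out, the shares were 49.5% (43.7 to 55.4%) of E2-only, 38.7% (21.9 to 57.8%) of shared and 23.2% (15.8 to 32.1%) of untreated-only sites, and the first and the last of these intervals did not overlap. Among all 12084 GR sites with Dex, 9.85% overlapped an ER site with E2. Among the strongest 10% of Dex sites it was 15.7% (13.7 to 17.9%), and all 3 classes lay above both values.

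**Figure D1:**
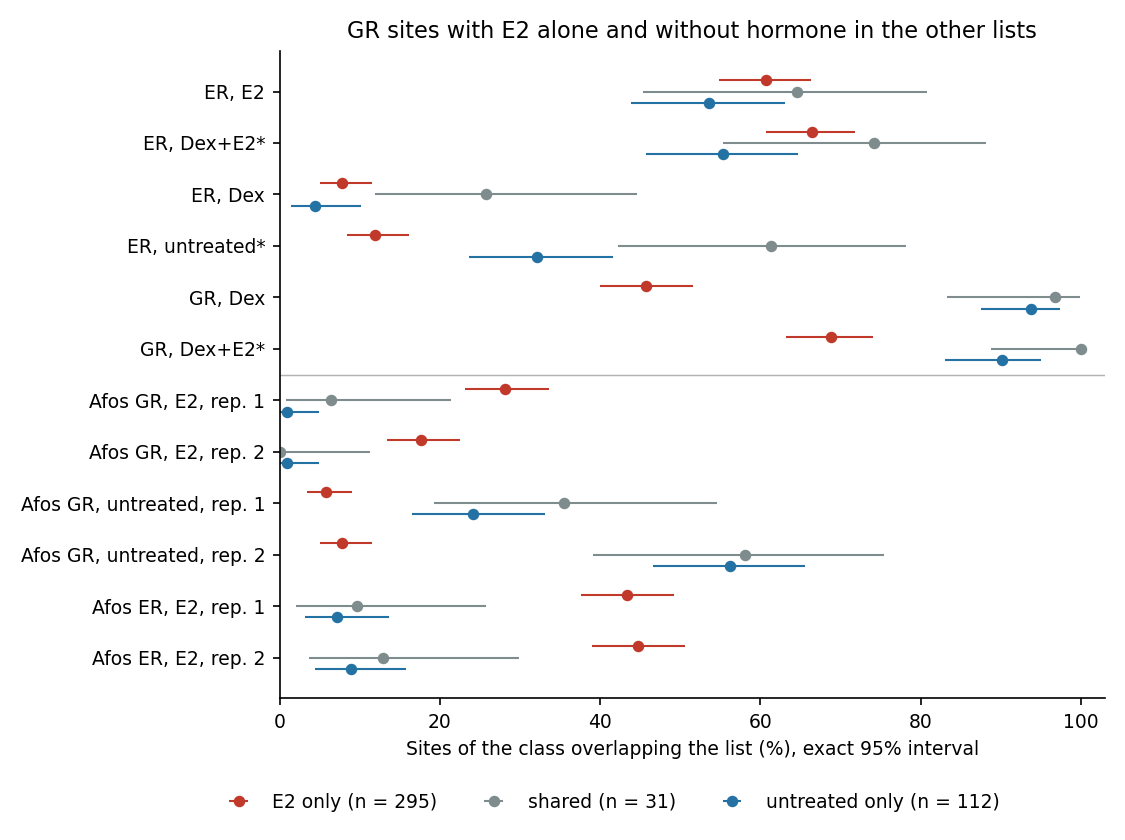
Share of E2-only, shared and untreated-only GR sites that overlap each list, in percent, with exact binomial 95% intervals; parental lists stand above the line and 7438 Afos lists below it, and an asterisk marks lists named by their file name against the sample label. The 3 classes lie close together for ER with E2, while E2-only sites are lower for GR with Dex and higher for GR and ER with E2 in 7438 Afos.

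The strength of the ER site under the GR site did differ in size between the classes. The ER sites under E2-only GR sites had a median percentile rank of 95.1 in the ER list (quartiles 64.9 and 98.9), and 107 of the 179 (59.8%, 52.2 to 67.0%) belonged to the strongest 10%. Those under untreated-only sites had a median rank of 44.8 (27.2 and 65.2), and 2 of 60 (3.33%, 0.406 to 11.5%) belonged to the strongest 10%. Those under shared sites stood between them at 61.1, with 2 of 20 in the strongest 10%. The median ER density was 62.4 under E2-only, 20.4 under shared and 15.9 under untreated-only sites. ER sites under untreated-only GR sites thus had ranks near the middle of the ER list, and those under E2-only GR sites mostly near its top.

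**Figure D2:**
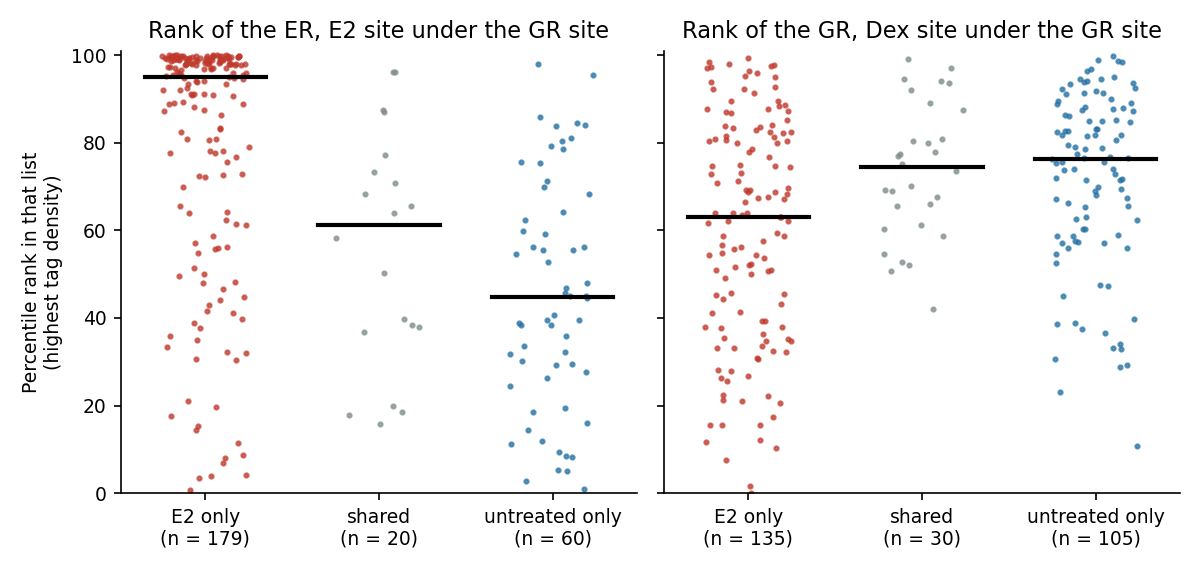
Percentile rank, by highest tag density within its own list, of the ER site with E2 (left) and of the GR site with Dex (right) that a GR site overlaps; each point is 1 overlapping GR site and the bar is the median. ER ranks gather near 100 for E2-only sites (median 95.1) and spread over the list for untreated-only sites (median 44.8).

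Seen from the ER list, GR with E2 was concentrated at the strongest sites. Of all 7136 ER sites with E2, 2.79% overlapped a GR site with E2 and 1.14% an untreated GR site. Among the strongest 10%, with ER densities from 45.4 upward, 109 of 714 sites (15.3%, 12.7 to 18.1%) carried a GR site with E2 and 4 (0.560%, 0.153 to 1.43%) an untreated one. Over all the weaker ER sites the shares were 1.40% (1.13 to 1.72%) and 1.20% (0.947 to 1.496%), with intervals that overlapped. The contrast sharpened toward the top of the ER list. GR with E2 was present at 52 of the 100 strongest ER sites and at 16 of the 20 strongest, where the untreated list had none. A count of 0 of 100 allows a share of up to 3.62% by the exact interval.

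Seen from the list of GR sites with Dex, sites of both GR lists lay more often on the stronger Dex sites. From the weakest to the strongest of 10 equal parts of the Dex list, 3, 7, 10, 17, 10, 22, 26, 19, 29 and 22 sites carried a GR site with E2. An untreated GR site was carried by 0, 1, 3, 9, 4, 15, 22, 26, 29 and 26. The share of Dex sites carrying a GR site with E2 was 1.82% (1.14 to 2.74%) among the strongest 10% and 1.32% (1.11 to 1.55%) among the rest. These 2 intervals overlapped. For the untreated list the share was 2.15% (1.41 to 3.14%) and 1.00% (0.824 to 1.21%), with intervals that did not overlap. None of the 20 strongest GR sites with Dex carried a site of either list, which allows a share of up to 16.8% by the exact interval. Over the whole Dex list, 1.37% of sites carried a GR site with E2 and 1.12% an untreated one.

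**Figure D3:**
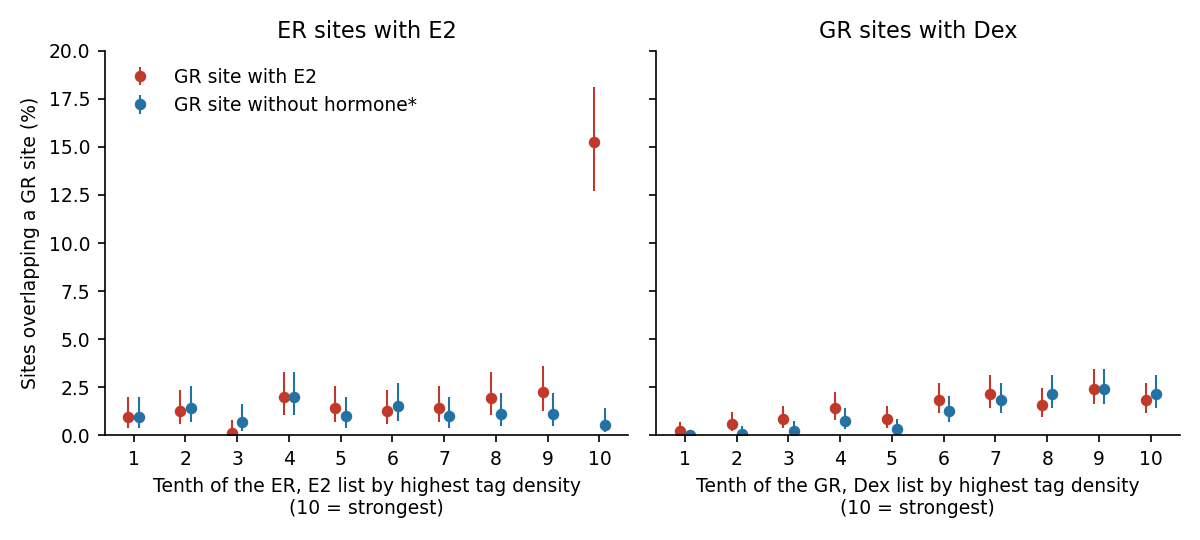
Share of ER sites with E2 (left) and of GR sites with Dex (right) that overlap a GR site with E2 or a GR site of the list named untreated (asterisk: its sample label differs), in percent, in 10 equal parts of the list by highest tag density, with exact binomial 95% intervals. The strongest part of the ER list stands at 15.3% for GR with E2 and at 0.560% without hormone, while in the GR Dex list both stay under 3%.

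GR sites without hormone were nearly all sites that GR also held with Dex, and E2-only sites were less often so. A GR site with Dex was present at 105 of 112 untreated-only sites (93.8%, 87.6 to 97.5%), at 30 of 31 shared sites (96.8%, 83.3 to 99.9%) and at 135 of 295 E2-only sites (45.8%, 39.98 to 51.6%), against 16.7% of all ER sites with E2. The interval of the E2-only share did not reach the other 2 intervals. The Dex sites under untreated-only sites had a median rank of 76.4 in the Dex list, those under shared sites 74.4, and those under E2-only sites 63.1.

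E2-only sites fell into 4 sets by what else was bound there. GR with Dex and ER with E2 were both present at 93 sites (31.5%), ER alone at 86 (29.2%), GR with Dex alone at 42 (14.2%), and neither at 74 (25.1%). Among untreated-only sites the same sets held 59, 1, 46 and 6 sites. The set with ER and without a GR Dex site thus made up 29.2% (24.03 to 34.7%) of E2-only and 0.893% (0.0226 to 4.87%) of untreated-only sites. Among shared sites it held 0 of 31, which allows a share of up to 11.2% by the exact interval.

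The 86 E2-only sites with ER and without GR with Dex were the strongest of the 4 sets. Their median rank in the GR E2 list was 71.7, against 58.4 with both, 43.6 with GR Dex alone and 32.6 with neither. The ER sites under these 86 had a median rank of 98.0, and 73 of them (84.9%, 75.5 to 91.7%) were among the strongest 10% of the ER list. Of the 86, 77 (89.5%, 81.1 to 95.1%) were in the GR list named for both hormones, against 32.6% of all ER sites with E2. Of the strongest 10% of ER sites, 82.2% (79.2 to 84.95%) were in that GR list, so the share of the 86 was near that of ER sites of like strength. The ER list named for both hormones held 84 of them (97.7%, 91.9 to 99.7%), against 88.3% of all ER sites with E2. None was in the ER list with Dex, and 2 were in the ER list named untreated.

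The 93 E2-only sites with both receptors had weaker ER sites, with a median rank of 76.7, over GR Dex sites with a median rank of 68.3. Of these, 25 (26.9%) were in the ER list named untreated. The GR list named for both hormones held 90 of the 93, against 63.7% of all GR sites with Dex. The ER list named for both hormones held 90 of them too (96.8%, 90.9 to 99.3%). That list held 88.3% of all ER sites with E2 and 24.9% of all GR sites with Dex. The 42 sites with GR Dex alone lay on Dex sites of median rank 51.0, none of which was among the strongest 10%. The strongest of them, on chromosome 6 (100750662 to 100750812), had a GR density of 39.9 with E2, 35.2 with Dex and 25.9 with both hormones. The nearest ER site with E2 there was 818 bp away, and an ER site of density 13.3 was called with both hormones. Of the 42, 19 (45.2%) were in the ER list named for both hormones and 7 (16.7%) in the ER list with Dex. Among all GR sites with Dex these shares were 24.9% and 1.94%.

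Among the 74 E2-only sites with neither, most were weak and found in no other parental list. In all, 65 of the 295 E2-only sites (22.0%, 17.4 to 27.2%) were in no other parental list, with a median density of 12.2, and 8 of these 65 were in any of the 16 lists of 7438 Afos. Untreated-only sites in no other parental list numbered 6 of 112 (5.36%). The strongest site with neither was on chromosome 17 (3082705 to 3082855), with a GR density of 42.5 with E2 and an ER density of 23.6 in the ER list named untreated. It was in no list of 7438 Afos. The strongest in no other list at all was on chromosome 15 (85796970 to 85797120), with a density of 24.5.

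In both GR lists the strongest sites overlapped ER most often, while overlap with GR Dex did not rise steadily with strength. With the E2 list cut by density into 4 equal parts, from the weakest to the strongest, ER with E2 was present at 39 of 81, 32 of 82, 56 of 81 and 72 of 82 sites. The strongest part, with densities from 21.0 upward, thus had ER at 87.8% (78.7 to 94.0%) of its sites. GR with Dex was present at 39, 37, 50 and 39 of the same sites. In the untreated list, cut in the same way, ER with E2 was present at 19 of 35, 15 of 36, 19 of 36 and 27 of 36 sites. GR with Dex was present there at 32 of 35, 35 of 36, 34 of 36 and 33 of 36 sites. Across the 179 E2-only sites with ER, GR and ER densities had a Spearman correlation of 0.48, and across the 135 with GR Dex the correlation of the GR densities with E2 and with Dex was 0.09. These points share 2 libraries each and are given as a description. The part of ER-bound chromatin in the GR calls was not tested.

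E2-only GR sites lay closer to the centres of ER sites they overlapped than to those of GR Dex sites they overlapped. Centres of overlapping sites of 150 bp are always less than 150 bp apart. Where an E2-only site overlapped an ER site, the centres were a median of 31.0 bp apart (quartiles 14.0 and 56.5), and 83 of 179 were within 25 bp. Where it overlapped a GR Dex site, the centres were 45.0 bp apart (21.5 and 81.0), and 37 of 135 were within 25 bp. For untreated-only sites the centres were 22.5 bp from ER and 23.0 bp from GR with Dex, and 57 of 105 were within 25 bp of the Dex centre. The untreated-only sites were thus centred on Dex sites more closely than the E2-only sites were. They were also nearer to the ER centre, with 32 of 60 within 25 bp.

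Taking all sites of a class, the median distance from the centre of an E2-only site to the nearest ER centre was 71 bp, and to the nearest GR Dex centre 270 bp. For untreated-only sites the medians were 72 bp and 25 bp, and for shared sites 75 bp and 30 bp. Over the whole Dex list the median distance to an ER site with E2 was 42710 bp. Within 50000 bp of a GR Dex centre lay 80.0% of E2-only sites (74.97 to 84.4%) and 97.3% of untreated-only sites (92.4 to 99.4%), against 71.9% of all ER sites with E2. The 116 E2-only sites that overlapped no ER site were a median of 40426 bp from the nearest one, and 33 of them had one within 5000 bp.

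**Figure D4:**
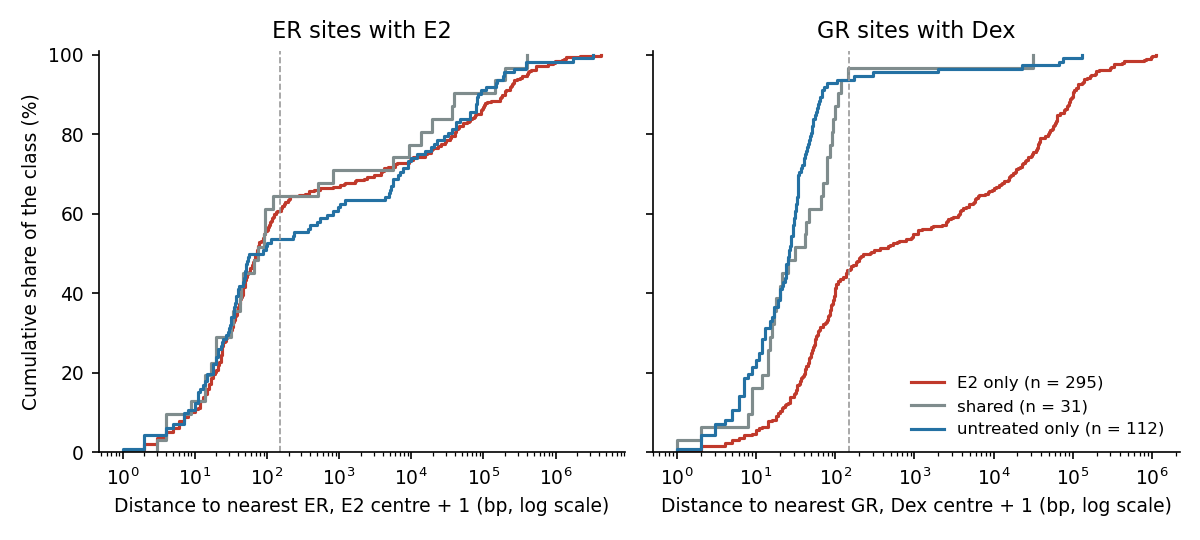
Cumulative share of each class, in percent, by distance in bp (log scale, plus 1) from its site centre to the nearest centre of an ER site with E2 (left) and of a GR site with Dex (right); the dashed line marks the site width of 150 bp. The 3 classes run together for ER, while E2-only sites lag for GR with Dex, with a median of 270 bp against 25 bp for untreated-only sites.

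The sites were scattered over the genome. Neighbouring sites within a chromosome were a median of 2938419 bp apart in the E2 list and 5067647 bp apart in the untreated list. Only 3 and 4 neighbouring centres were within 1000 bp of each other, and merging sites less than 1000 bp apart left 321 and 139 regions. Chromosome 2 held the most E2-only sites, 27 of 295 (9.15%), next to 7.76% of GR Dex sites and 7.89% of ER sites with E2. Chromosome 4 held the most untreated-only sites, 12 of 112 (10.7%), next to 6.07% of GR Dex sites.

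The 31 shared sites had similar densities with E2 and without hormone. The ratio of the density with E2 to that without hormone had a median of 0.979, with quartiles of 0.845 and 1.28 and a range from 0.587 to 2.08. It was above 1 at 14 sites and below 1 at 17. In rank they stood at a median percentile of 45.6 in the E2 list and of 64.3 in the untreated list. Their centres were a median of 43.0 bp apart in the 2 lists, and at most 141 bp.

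The highest shared site, on chromosome 15 (62159857 to 62160007), had a GR density of 37.3 with E2, 21.4 without hormone, 161 with Dex and 111 with both hormones. The next, on chromosome 4 (58415255 to 58415405), had 31.0 with E2, 14.9 without hormone, 35.8 with Dex and 27.2 with both. At both, the raw GR density was higher with E2 than without hormone, and higher again with Dex. The site on chromosome 1 (12634776 to 12634926) was the strongest of the untreated list, with 43.0 without hormone, 30.5 with E2, 31.9 with Dex and 42.0 with both hormones. On chromosome 14 (104736084 to 104736234) the densities in that order were 40.2, 23.6, 32.6 and 40.9. On chromosome 5 (114623011 to 114623161) they were 34.8, 20.9, 26.0 and 37.5, and ER with Dex reached 40.6. At these 3 sites the raw GR density was higher without hormone than with E2, and no higher with Dex than without hormone. Since the scaling between lists is not given, these orders of raw densities need not be orders of GR level. The chromosome 1, 14 and 5 sites had ranks of 100, 99.3 and 98.6 in the untreated list. None of the 3 was in an untreated GR list of 7438 Afos. All 3 were in the ER list with Dex of replicate 2 there, with densities of 19.15, 11.51 and 11.72.

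**Figure D5:**
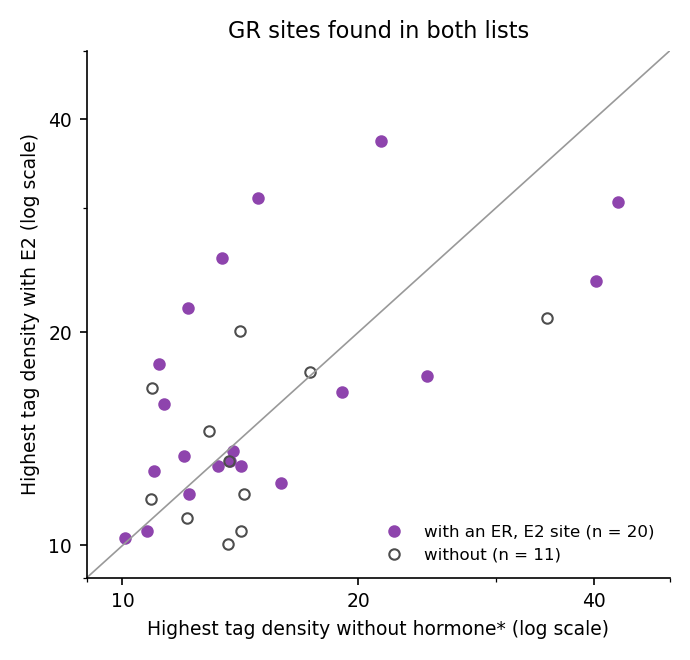
Highest tag density of the 31 shared GR sites with E2 (y axis) and in the list named untreated (x axis; asterisk: its sample label differs), both on log scales, with the line of equal values; filled points overlap an ER site with E2. Points scatter on both sides of the line, 14 above and 17 below.

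Shared sites were in many lists at once. Of the 31, 19 (61.3%, 42.2 to 78.1%) were in the ER list named untreated, which holds 373 sites, against 36 of 112 untreated-only sites (32.1%) and 35 of 295 E2-only sites (11.9%). Among all GR sites with Dex, 1.85% were in that list. The ER list with Dex held 8 of the 31 shared sites, 5 of the untreated-only and 23 of the E2-only sites, against 1.94% of all GR sites with Dex. Of the shared sites, 3 were in all 8 parental lists and 13 in 7, while no E2-only or untreated-only site could be in more than 7, and 6 and 2 of them were.

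The strongest untreated-only sites were GR Dex sites, and 4 of the 5 strongest also overlapped an ER site with E2. On chromosome 4 (59327996 to 59328146) GR had a density of 28.3 without hormone, 109 with Dex and 88.4 with both hormones, and none was called with E2. On chromosome 12 (33866830 to 33866980) it had 26.9 without hormone, 42.3 with Dex and 45.6 with both, at an ER site of density 65.4. The next, on chromosome 17 (75655422 to 75655572), had 25.1 without hormone and 68.2 with Dex. All 5 of the strongest were in the GR lists with Dex and with both hormones, and 4 were in each untreated GR list of 7438 Afos. All 5 were also in the ER list named for both hormones, and 4 in the ER list named untreated. The chromosome 12 site was in both GR E2 lists of 7438 Afos too, with densities of 9.14 and 13.5.

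The classes made from the parental lists were looked up in the GR lists of 7438 Afos, which had no part in making them. E2-only sites were found more in the E2 lists, with 28.1% and 17.6% of the 295 in replicates 1 and 2, than in the untreated lists, with 5.76% and 7.80%. Untreated-only sites were found in the untreated lists at 24.1% and 56.2% of 112, and in the E2 lists at 0.893% in each. Shared sites were found in the untreated lists at 35.5% and 58.1% of 31, and in the E2 lists at 6.45% and 0%. Both E2 lists lay above both untreated lists for E2-only sites, and below both for the other 2 classes. The difference of the means, E2 minus untreated, was 16.1 percentage points for E2-only sites (22.9 ± 7.43% against 6.78 ± 1.44%, mean ± SD, n = 2 lists each). It was -39.3 points for untreated-only and -43.5 points for shared sites. A two-sided exact permutation test gave p = 0.333 for each class, the smallest p that 2 lists against 2 allow. The untreated lists held 95 and 315 sites and the E2 lists 490 and 146, so neither treatment had the longer list in both replicates.

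Recovery in 7438 Afos was highest for the E2-only sites with ER and without GR Dex. Of these 86 sites, 61 were in the GR E2 list of replicate 1 and 39 in that of replicate 2, and 2 and 1 were in the untreated lists. In at least 1 of the E2 lists were 70.9% (60.1 to 80.2%) of them. The share was 19.4% for the 93 sites with both receptors, 4.76% for the 42 with GR Dex alone and 4.05% for the 74 with neither. Of all parental ER sites with E2, 6.45% were in a GR E2 list of 7438 Afos, as were 0.538% of parental GR Dex sites. For the untreated GR lists of 7438 Afos these shares were 1.6% and 1.91%. The ER sites under the 86 had a median rank of 98.0, and 84.9% were among the strongest 10%. The share in the GR E2 lists of 7438 Afos was not taken for ER sites of like strength. Whether the 70.9% differs from it was not tested. ER itself, in 7438 Afos with E2, was at 76 and 77 of the 86 sites. It was at 128 and 132 of all 295 E2-only sites, against 8 and 10 of the 112 untreated-only sites. Of all parental ER sites with E2, 57.9% and 51.5% were in the ER E2 lists of replicates 1 and 2. Of the 60 untreated-only sites that overlapped an ER site in the parental cells, 7 (11.7%, 4.82 to 22.6%) and 9 (15.0%, 7.10 to 26.6%) were. Of the 179 such E2-only sites, 119 (66.5%, 59.1 to 73.4%) and 122 (68.2%, 60.8 to 74.9%) were. Recovery of ER sites depended on their strength. It was 32.7% (29.3 to 36.3%) and 23.2% (20.2 to 26.5%) for the weakest 10% of parental ER sites, and 95.8% and 95.5% for the strongest 10%. For ER sites of percentile rank 40 to 50, around the median rank of those under untreated-only sites, it was 51.6% (47.9 to 55.3%) and 40.7% (37.0 to 44.4%).

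The highest E2-only sites were all found in 1 GR E2 list of 7438 Afos, and most of them in the other. All 10 were in the list of replicate 1, with densities from 9.46 to 58.3, and 7 were in that of replicate 2, with densities from 12.5 to 25.7. The chromosome 8 pair had the same density in each list of 7438 Afos (9.46 here), so the 2 sites count 1 wider site there. At the chromosome 11 site GR had 39.0 and 17.0 with E2 in the 2 replicates, and 128 and 83.4 with both hormones. ER had 274 and 165 there with E2. No GR site with Dex and no untreated site of either receptor was called at that position in 7438 Afos.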

How the data were processed

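Sites come from ChIP-seq of GR and ER in 24 of the 39 samples, and 15 samples were not analysed here. The submitters' processing notes name the mouse build mm9 and CASAVA 1.8. The aligner, the peak caller, any control and the calling threshold: not given in the sources used here. Per the file headers, the authors deposited for each site a highest and an average tag density (a signal value), a z-score (the authors' score) and, in 7438 Afos, a p-value, which the authors deposited and which was used in no result. Parental sites are 150 bp wide with density at least 10. Numbering in the E2 list runs to 568 for 326 sites, so the numbering has gaps.

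Sites overlapped when they shared 1 bp or more. Of several overlapping partners, the one with the nearest centre was used. Percentile ranks are of the highest tag density within a list. Overlap and distance functions were tested on simulated lists. The members, classes and alternatives were chosen with earlier results of these data known. The named sites are the 10 highest E2-only, 10 highest shared and 5 highest untreated-only sites, and the 3 highest E2-only sites of each of the 4 sets; the text gives the leading ones. Alternatives are in the closing section. The exact permutation test over the 4 lists of 7438 Afos was added after the data were seen. Motif and gene searches were not run, since no mm9 genome was at hand. Python 3.11.15, NumPy 2.4.6, SciPy 1.17.1, pandas 2.3.3 and matplotlib 3.10.9 were used.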

Additional observations from a re-analysis of the deposited data

How the results depend on the processing

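Each parental treatment is 1 list, so no parental share has a replicate check, and a site absent from a list may have lain under its threshold. Of 109 alternative values for 28 results, 69 stayed within the interval or quartiles of the reported value (for a number of sites, within 1.5 times). Ranks by average tag density or z-score all did. Following the sample labels, which was run for 14 of the results, left 3 within the interval (ER at shared sites, and ER and GR Dex in the whole E2 list) and moved the others. The 2 values of the whole E2 list, counted among the 69, could not change, since the labels do not alter that list. The list labelled untreated has 9503 sites, 71.8% of E2 sites overlapped it and 2.49% of it overlapped E2 sites. ER with E2 was then at 13.0% of E2-only and 23.1% of untreated-only sites, and GR with Dex at 12.0%, 65.8% (shared) and 81.4%. Of the strongest 10% of ER sites, 82.2% overlapped it. A reciprocal overlap of 50% gave E2-only shares of 51.2% for ER and 32.0% for GR Dex, and centres within 500 bp gave 52.2% for GR Dex. With untreated sites from their median density upward set against the whole E2 list, 31.9% overlapped E2 sites. With GR sites cut in that way and the ER list kept whole, ER was at 79.7% of E2-only and 65.3% of untreated-only sites. With only ER sites from their median density upward and all GR sites kept, ER was at 49.5% of E2-only, 38.7% of shared and 23.2% of untreated-only sites. With only such Dex sites, GR Dex was at 30.2% of E2-only and 79.5% of untreated-only sites. With equal numbers of sites, 9.79% of untreated sites overlapped E2 sites, and, in an alternative added after the data were examined, 10.6% of the strongest 10% of ER sites carried GR with E2. Also added was leaving out sites in the ER list named untreated, which put ER at 43.4% of untreated-only sites. Using 1 replicate of 7438 Afos at a time, GR E2 lists held 17.6 to 28.1% of E2-only, 0 to 6.45% of shared and 0.893% of untreated-only sites. Untreated lists held 5.76 to 7.80%, 35.5 to 58.1% and 24.1 to 56.2%. The lists of replicate 1 and 2 together held 28.5%, 6.45% and 0.893% (E2) and 10.2%, 58.1% and 58.9% (untreated). The cause of these changes was not tested beyond what each alternative's construction sets.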
